A study of Mus musculus with 15 samples.

Results

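Wounded skin of C57BL/6 mice at day 7 was set against wounded skin at day 3, using the 3 RNA-seq libraries that the labels place at day 7 and the 3 they place at day 3. These are 6 of the 15 libraries of a time course that also covers day 0, day 1 and day 5, with 3 libraries each. Both groups share the strain, the tissue and the wound, so the groups differ in the labels by time alone. Whether the 3 libraries of a day are 3 animals is not stated in the labels, so the p-values refer to the spread between libraries, and that spread may be technical. The skin had been freed of muscle and fat before RNA was extracted, and libraries were made from messenger RNA. The labels used here do not state the age or sex of the mice or the kind of wound.

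Skin repair runs through overlapping phases. Inflammation comes first, when neutrophils and then monocytes enter the wound under the lead of cytokines and chemokines and keratinocytes at the edge change their keratins and adhesion proteins and begin to migrate. Fibroblasts and new vessels then fill the wound with granulation tissue, and that tissue is later remodelled as inflammatory cells and excess vessels are lost.

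The day 7 libraries held 47000483, 38062562 and 54719929 estimated counts and the day 3 libraries 58558361, 47373323 and 50825437. Levels are given in CPM, counts relative to the size of the library after scaling by edgeR's trimmed mean method (TMM), and fold changes are those of day 7 over day 3. Keratinocyte and fibroblast markers were high in all 6 libraries: Krt5 was at 1050 CPM or more, Krt10 at 983 CPM or more, Col1a1 at 6270 CPM or more and Dcn at 2150 CPM or more. Of 8 marker genes of other organs, 7 were at or near 0, with albumin at no more than 2.15 CPM and the kidney gene Umod at 0 counts. The eighth, Cyp2e1, which liver is known for and adipocytes also express, lay between 36 and 191 CPM. Day 7 replicate 3 stood apart. The summed share of 34 hair follicle and hair keratin genes was 0.0662%, 0.0589% and 2.61% of the counts in day 7 libraries 1 to 3, against 0.0124%, 0.0138% and 0.0277% in day 3 libraries 1 to 3. Values without day 7 replicate 3 are therefore given beside a number of results that rest on it.

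Most of the large changes were losses. Transcripts of inflammation, of the wound-edge epidermis, of the hypoxia and glycolysis programme and of blood vessels were lower at day 7, while a smaller group that included the matrix protein gene Postn, the protease gene Mmp12 and the mitochondrial genome was higher. Of 16983 genes tested, 1296 (7.63%) were called by edgeR's quasi-likelihood test, with a Benjamini-Hochberg adjusted p under 0.05. Of these, 522 genes (3.07% of those tested) were higher at day 7 and 774 (4.56%) were lower. At least 2-fold changes were called for 77 genes (0.453%) that were higher and 341 genes (2.01%) that were lower. The 3 day 7 libraries lay wholly above the 3 day 3 libraries for 2806 genes (16.5%) and wholly below them for 2560 (15.1%). Genes named for the largest fold changes were picked from those without overlap, so their lack of overlap is no separate support. At an unadjusted p under 0.05 there were 4699 of the 16983 genes, and DESeq2 called 1290 higher and 1643 lower. List counts of these 2 kinds below are to be read beside those numbers. Over all tested genes the log2 fold change had a median of 0.05. Because each library pools all cells of a piece of skin, fewer cells of a type and less RNA per cell cannot be told apart.

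The number of calls rested on single libraries. With 1 library left out, the calls numbered 1414, 143 and 692 for day 7 replicates 1, 2 and 3 and 361, 114 and 823 for day 3 replicates 1, 2 and 3. All 1296 calls kept their sign in each of these fits. These genes were called from the same libraries, so their sign could hardly change, and this is no separate test of direction. In all 6 fits 16 genes were called higher and 76 were called lower. The fit on the 6 libraries alone, without the shared estimate of spread from day 1 and day 5, called 26 genes higher and 153 lower. Of the 114 called genes whose values are given here, 46 were called in that fit, and 97 were called when day 0 was included; Cxcl5, Cxcr2, Folr2, Cxcl10, Ifit1, Krt6a, Krt6b, Krt16, Slpi, Dsg3, Nos3, Tnc, Thbs1, Cyr61, Zim1, Ceacam3 and Junb were not called with day 0 included. Day 5 replicate 2, another library rich in hair genes, adds to the shared estimate of spread, and without it all 114 were called, as were Adgre1, Flt4 and other genes given in their paragraphs. That fit called 748 of the 16983 genes tested higher and 1045 lower. Of the 114, 25 were called in all 6 fits that left out 1 day 7 or day 3 library, and 8 in none: Ifit1, Postn, Aspn, Col18a1, Loxl3, Zim1, Plagl1 and Tnf.

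**Figure D1:**
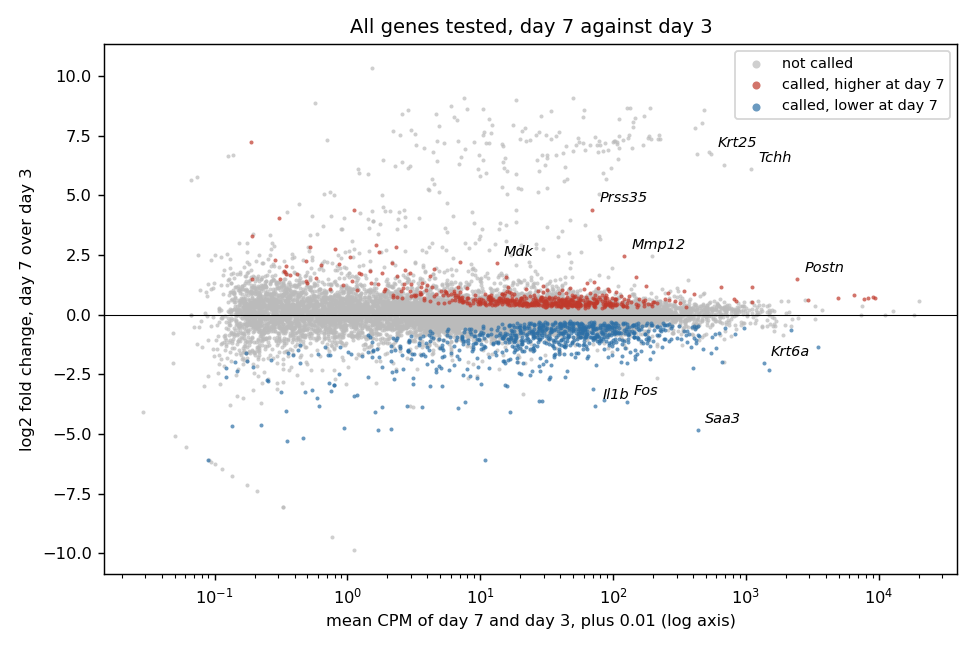
Each point is one of the 16983 genes tested, placed by its mean CPM over day 7 and day 3 (log axis) and its log2 fold change of day 7 over day 3. Red points are the 522 genes called higher and blue points the 774 called lower; hair genes such as Krt25 and Tchh lie far above 0 and are grey because they were not called.

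Cytokines and chemokines were among the genes with the largest losses. Of 21 tested genes in a list of inflammatory cytokines and chemokines, 12 fell and none rose (57.1% against 4.56% of all genes), with a median log2 fold change of -2.17. Outside that list, the acute-phase gene Saa3, which encodes a serum amyloid A protein made at inflamed sites, stood at 10.5, 8.11 and 70.5 CPM in day 7 libraries 1 to 3, against 1619.9, 514 and 391 CPM in day 3 libraries 1 to 3. The groups did not overlap, although day 7 replicate 3 was several times higher than the other day 7 libraries and day 3 replicate 1 several times higher than the other day 3 libraries. Saa3 was 28.3-fold lower at day 7, a log2 fold change of -4.82 ± 0.95 (SE, edgeR adjusted p = 0.0208). Without day 7 replicate 3 the log2 fold change was -6.50, and without day 3 replicate 1 it was -3.93. Its relative Saa1, whose reads can be shared with the close copy Saa2, averaged 0.354 ± 0.368 CPM in day 7 libraries and 5.23 ± 4.20 CPM in day 3 libraries (SD, n = 3 each) and was 14.3-fold lower (edgeR adjusted p = 0.0275).

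Il1b, which encodes the cytokine interleukin-1 beta, was at 4.69, 6.63 and 17.9 CPM at day 7 and 166, 121 and 126 CPM at day 3. Every day 7 library lay well below every day 3 library, and the highest of the day 7 libraries was again replicate 3. The log2 fold change was -3.82 ± 0.76 (SE, edgeR adjusted p = 0.0214), or 14.1-fold lower. Cxcl1, a chemokine that draws neutrophils, was at 0.547, 0.429 and 1.56 CPM at day 7 and 8.17, 14.2 and 16.1 CPM at day 3, with no overlap. Its log2 fold change was -3.89 ± 0.56 (SE, edgeR adjusted p = 0.00833). Il6, another fever and acute-phase cytokine, was at 0.505, 0.376 and 0.871 CPM at day 7 and 3.59, 4.26 and 3.69 CPM at day 3, and was 6.50-fold lower (edgeR adjusted p = 0.0079). The 3 day 3 libraries were close together for Il6 and the groups were far apart.

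Other members of this group fell as well. The neutrophil chemokine gene Cxcl5 was 12.1-fold lower (edgeR adjusted p = 0.0436), and Il24 and Il19, of the interleukin-10 family, were 17.0-fold and 14.1-fold lower (edgeR adjusted p = 0.00893 and 0.0287). Osm, the gene of the cytokine oncostatin M, averaged 0.929 ± 0.0356 CPM at day 7 and 7.47 ± 1.70 CPM at day 3 (SD, n = 3 each) and was 8.02-fold lower (edgeR adjusted p = 0.0126). Ptgs2, the inducible cyclooxygenase of prostaglandin synthesis, was 7.63-fold lower (edgeR adjusted p = 0.0219), and Ccl2, a chemokine that draws monocytes, was 4.50-fold lower (edgeR adjusted p = 0.00833). Tnf, the gene of tumour necrosis factor, was 3.15-fold lower (edgeR adjusted p = 0.0366). For the cytokine list, the number of members called lower was 10, 4 and 11 with day 7 replicates 1, 2 and 3 left out in turn, and 7, 6 and 10 with day 3 replicates 1, 2 and 3 left out. Il6, Il24, Cxcl1 and Ccl2 were called in all 6 fits that left out 1 library; Saa3, Saa1, Cxcl5, Il1b, Il19, Osm and Ptgs2 each missed the threshold in at least 1 of the fits without day 7 replicates 1 or 2 or day 3 replicates 1, 2 or 3, with edgeR adjusted p between 0.0548 and 0.121 where they did, and Tnf missed it in all 6. Without day 7 replicate 3 the log2 fold changes of Cxcl5, Saa1, Cxcl1, Il1b and Il19 were -5.65, -5.10, -4.70, -4.61 and -4.56, and without day 3 replicate 1 those of Saa1 and Il24 were -3.07 and -3.41. Il6, Ccl2 and Tnf were named after their values were seen.

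**Figure D2:**
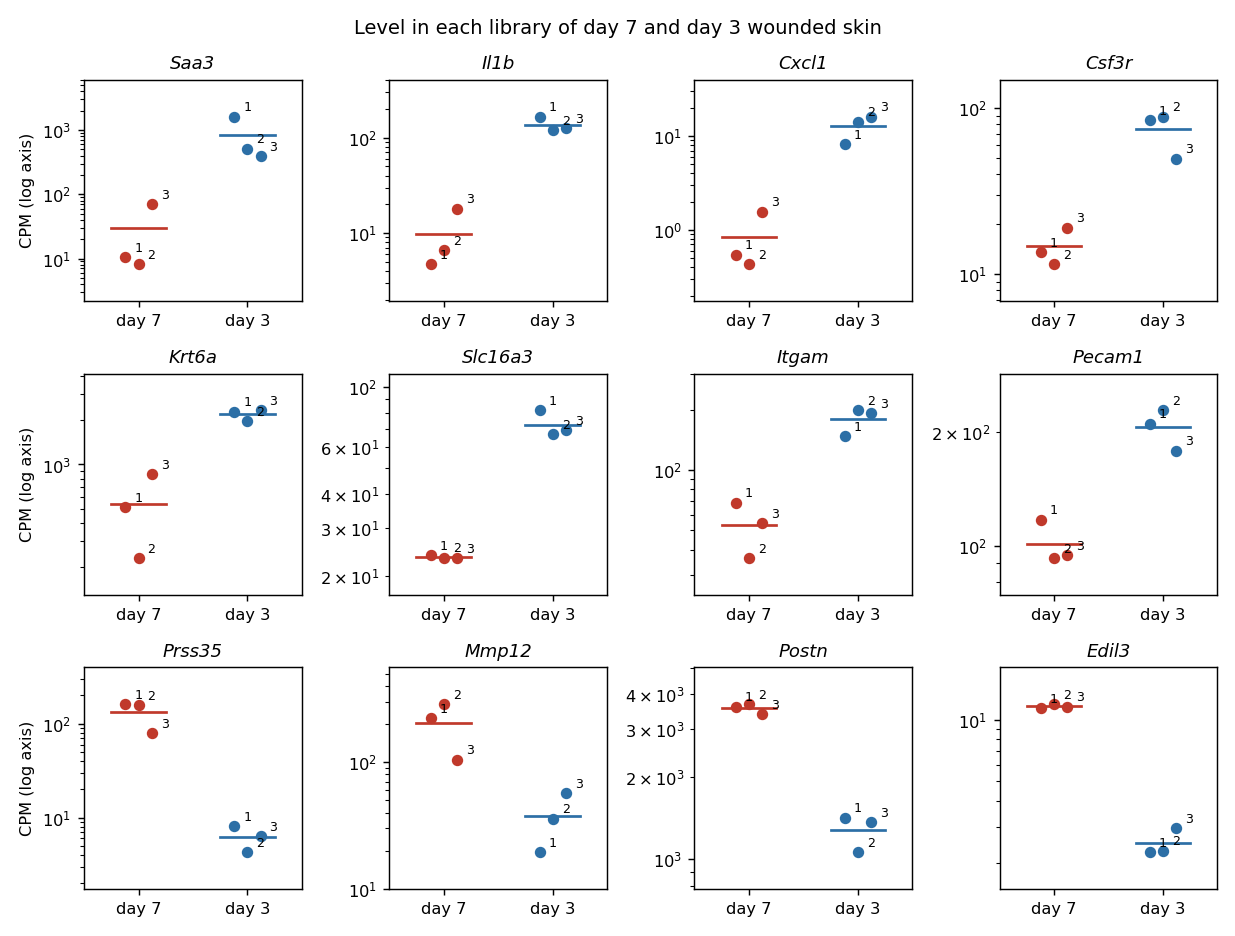
CPM (log axis) of 12 genes in each library, day 7 in red on the left and day 3 in blue on the right of each panel, with the replicate number beside each point and a line at the group mean. In all 12 panels the groups do not overlap, which the naming rule required of some, Saa3, Il1b, Cxcl1 and Prss35 among them. Saa3 ran from 8.11 to 70.5 CPM at day 7 and from 391 to 1620 CPM at day 3, and Prss35 from 78.9 to 161 CPM at day 7 and from 4.30 to 8.11 CPM at day 3.

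Genes of neutrophils, the first leukocytes to enter a wound, fell with the chemokines. Of 20 tested neutrophil genes, 11 were called lower and none higher (55% against 4.56% of all genes), and the median log2 fold change was -2.39. The summed share of all 21 genes of the list was 0.0146%, 0.0159% and 0.0320% of the counts in day 7 libraries 1 to 3, against 0.126%, 0.0871% and 0.0728% in day 3 libraries 1 to 3. The groups did not overlap; the exact two-sided permutation p was 0.1, the smallest that 3 against 3 libraries can give. Csf3r, the receptor for the growth factor that mobilises neutrophils, was at 13.6, 11.4 and 19 CPM at day 7 and 84.8, 88.9 and 49.7 CPM at day 3. All day 7 libraries were below all day 3 libraries, and the log2 fold change was -2.34 ± 0.24 (SE, edgeR adjusted p = 0.00572). Mmp8, the neutrophil collagenase, was at 1.70, 2.74 and 3.19 CPM at day 7 and 16.5, 13.6 and 18.4 CPM at day 3 and fell 6.36-fold (edgeR adjusted p = 0.0068).

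Trem1, a receptor that amplifies inflammatory signals in myeloid cells, was 12.7-fold lower (edgeR adjusted p = 0.016), and Lcn2, which encodes the iron-trapping protein lipocalin 2, was 12.3-fold lower (edgeR adjusted p = 0.0116). Cxcr2, the receptor for Cxcl1 and Cxcl5, was 5.38-fold lower (edgeR adjusted p = 0.016). S100a8 and S100a9, which encode the calprotectin subunits stored in neutrophils, were not called. S100a8 was at 11.7, 14.2 and 81.4 CPM at day 7 and 269, 172 and 158 CPM at day 3 (edgeR adjusted p = 0.069), and S100a9 was at 18.3, 13.4 and 143 CPM at day 7 and 501, 327 and 276 CPM at day 3 (edgeR adjusted p = 0.0811). For both genes the groups did not overlap and day 7 replicate 3 was far above the other day 7 libraries. Without that library both were called lower, with log2 fold changes of -3.95 for S100a8 and -4.54 for S100a9, against -2.48 and -2.66 with it (edgeR adjusted p = 0.0129 and 0.00879 without it). For the neutrophil list, the number of members called lower was 9, 3 and 14 with day 7 replicates 1, 2 and 3 left out in turn, and 5, 3 and 10 with day 3 replicates 1, 2 and 3 left out. Csf3r and Mmp8 were called in all 6 fits; Trem1, Lcn2 and Cxcr2 each missed the threshold in at least 1 of the fits without day 7 replicate 2 or day 3 replicates 1 or 2, at edgeR adjusted p of 0.0524 to 0.0691. The log2 fold changes of Trem1 and Cxcr2 were -4.60 and -3.18 without day 7 replicate 3, and that of Lcn2 was -2.69 without day 3 replicate 1. Csf3r and Cxcr2 were named after their values were seen.

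Macrophage genes were lower by smaller factors. Of 20 tested monocyte and macrophage genes, 8 fell and none rose (40% against 4.56%), with a median log2 fold change of -0.82. Of 12 tested genes of resident dermal macrophages, 5 fell and none rose (41.7%, median -0.98 in log2), and of 13 tested genes of alternative macrophage activation, 4 fell and none rose (30.8%, median -0.57 in log2), while 6 of the 13 had positive fold changes that were not called. Without day 7 replicate 3 the median log2 fold changes were -0.72 for monocyte and macrophage genes, -0.68 for resident macrophage genes and -0.21 for alternative activation genes. Without day 5 replicate 2, 12 of the monocyte and macrophage genes were called lower, against 1045 of all 16983 genes tested. Itgam, an integrin chain of myeloid cells, was at 68.9, 36.3 and 54.5 CPM at day 7 and 147, 198 and 192 CPM at day 3. Its log2 fold change was -1.75 ± 0.22 (SE, edgeR adjusted p = 0.0068), and all day 7 libraries were below all day 3 libraries. Fcgr1, a high-affinity antibody receptor of monocytes and macrophages, was at 24.8, 21.3 and 24.4 CPM at day 7 and 55.3, 98.9 and 85.4 CPM at day 3, and fell 3.4-fold (edgeR adjusted p = 0.00762).

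Cd14, the lipopolysaccharide co-receptor, averaged 28.1 ± 2.33 CPM at day 7 and 99.2 ± 26.6 CPM at day 3 (SD, n = 3 each; edgeR adjusted p = 0.0169). Ly6c2 and Ccr2, which mark inflammatory monocytes, were 3.54-fold and 2.26-fold lower (edgeR adjusted p = 0.0363 and 0.0222); reads of Ly6c2 can be shared with its close copy Ly6c1. The general macrophage genes Cd68 and Csf1r were 2.21-fold and 2.02-fold lower (edgeR adjusted p = 0.0155 and 0.0482). Adgre1, which encodes the F4/80 antigen, averaged 137 ± 30.3 CPM at day 7 and 256 ± 28 CPM at day 3 (SD, n = 3 each) and was not called (edgeR adjusted p = 0.0605). Among genes of resident macrophages, Cbr2, a carbonyl reductase, was at 73.5, 71.3 and 57.4 CPM at day 7 and 233, 196 and 173 CPM at day 3 and fell 2.97-fold (edgeR adjusted p = 0.00583). The chemokine gene Ccl8 fell 2.20-fold and the folate receptor gene Folr2 fell 2.03-fold (edgeR adjusted p = 0.0249 and 0.0464), and Fcna, which encodes the lectin ficolin A, and Fcrls, a macrophage gene related to antibody receptors, fell 2.32-fold and 1.73-fold (edgeR adjusted p = 0.0482 and 0.0433). Timd4, a receptor for dying cells on long-lived macrophages, was near 1 CPM in both groups, at 1.15 ± 0.503 CPM at day 7 and 1.25 ± 0.396 CPM at day 3 (SD, n = 3 each; edgeR adjusted p = 0.896).

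Genes of alternative activation differed among themselves. Chil3, a chitinase-like secreted protein, fell 7.92-fold (edgeR adjusted p = 0.0197) and Il4ra, a chain of the interleukin-4 receptor, fell 2.83-fold (edgeR adjusted p = 0.0082). Il10, the gene of the anti-inflammatory cytokine interleukin-10, fell 3.39-fold (edgeR adjusted p = 0.0126), and Mrc1, the mannose receptor, fell 1.96-fold (edgeR adjusted p = 0.0401). Arg1, the arginase of alternatively activated macrophages, was at 34.4, 28.9 and 108 CPM at day 7 and 123, 64.7 and 90.6 CPM at day 3; the groups overlapped and it was not called (edgeR adjusted p = 0.402). Its log2 fold change was -0.70, and -1.55 without day 7 replicate 3. Retnla, a resistin-like secreted protein, was at 66.8, 45.8 and 2.97 CPM at day 7 and 1.60, 8.65 and 14.5 CPM at day 3, with overlapping groups, a log2 fold change of 2.22 and no call (edgeR adjusted p = 0.229). Of the macrophage genes named here, Itgam, Fcgr1, Cbr2 and Il4ra were called in all 6 fits that left out 1 library. Cd14, Ly6c2, Ccr2, Cd68, Csf1r, Ccl8, Folr2, Fcna, Fcrls, Chil3, Il10 and Mrc1 each missed the threshold in at least 1 of the 6 fits, at edgeR adjusted p of 0.0504 to 0.141. Without day 7 replicate 3 the log2 fold change of Chil3 was -3.77. For the monocyte and macrophage list, members called lower numbered 7, 2 and 4 with day 7 replicates 1, 2 and 3 left out in turn, and 5, 3 and 5 with day 3 replicates 1, 2 and 3 left out. For the resident list they numbered 5, 1 and 1 with day 7 replicates 1, 2 and 3 left out in turn, and 1, 1 and 2 with day 3 replicates 1, 2 and 3 left out, and for alternative activation 4, 1 and 3 with day 7 replicates 1, 2 and 3 left out in turn, and 3, 1 and 3 with day 3 replicates 1, 2 and 3 left out. Cd68, Csf1r and Retnla were named after their values were seen.

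Interferon-stimulated genes, which encode antiviral and chemokine proteins and are switched on by the interferon-activated factor complex ISGF3, were lower as a group. Of 20 tested, 12 fell and none rose (60% against 4.56%), and the median log2 fold change was -0.999. In 16 of the 20 all day 7 libraries lay below all day 3 libraries, against 15.1% of all genes. The promoters of 4 of the genes that fell are shown, because these carry the core of the interferon-stimulated response element, GAAA, then any 2 bases, then GAAA. Each runs 5′ to 3′ on the gene's own strand from 250 bases before to 50 bases after its start in RefSeq (mouse GRCm38.p6), and the capitals mark matches to the core on either strand.
Ifit1 (chr19:34640639-34640938, plus strand): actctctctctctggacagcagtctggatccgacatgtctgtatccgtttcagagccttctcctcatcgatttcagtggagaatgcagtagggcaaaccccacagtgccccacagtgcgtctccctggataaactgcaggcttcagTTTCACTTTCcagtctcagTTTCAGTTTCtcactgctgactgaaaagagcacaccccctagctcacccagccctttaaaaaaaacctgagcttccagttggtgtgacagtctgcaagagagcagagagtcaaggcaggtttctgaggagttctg
Ifit3 (chr19:34583279-34583578, plus strand): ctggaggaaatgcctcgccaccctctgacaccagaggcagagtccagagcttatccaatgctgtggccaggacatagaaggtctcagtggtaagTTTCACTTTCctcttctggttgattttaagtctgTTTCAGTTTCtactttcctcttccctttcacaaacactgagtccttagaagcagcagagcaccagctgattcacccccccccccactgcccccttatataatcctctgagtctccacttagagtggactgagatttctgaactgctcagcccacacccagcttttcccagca
Rsad2 (chr12:26456403-26456702, minus strand): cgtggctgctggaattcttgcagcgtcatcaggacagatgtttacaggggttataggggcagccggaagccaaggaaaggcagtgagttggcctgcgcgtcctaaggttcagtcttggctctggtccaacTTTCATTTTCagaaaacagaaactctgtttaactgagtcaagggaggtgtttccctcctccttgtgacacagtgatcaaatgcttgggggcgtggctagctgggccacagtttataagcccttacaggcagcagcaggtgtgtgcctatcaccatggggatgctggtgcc
Cxcl10 (chr5:92348840-92349139, minus strand): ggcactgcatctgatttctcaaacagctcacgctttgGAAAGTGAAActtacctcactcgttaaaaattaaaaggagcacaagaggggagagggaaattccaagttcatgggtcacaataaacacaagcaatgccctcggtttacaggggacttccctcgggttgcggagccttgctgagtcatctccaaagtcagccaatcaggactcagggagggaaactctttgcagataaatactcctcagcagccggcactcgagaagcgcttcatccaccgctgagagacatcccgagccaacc
Of the 15 list members with a promoter in the table, 10 held the core (66.7%), and of the 10 of those that fell, 7 did (70%): Ifit1, Ifit3, Oas1a, Oas3, Rsad2, Cxcl10 and Ddx58. Ifit2, Oasl2 and Irf7 fell and had no match in their windows. Among all 27025 genes with a RefSeq promoter, 1079 held the core (3.99%), and among the 12476 of them that were tested, 493 did (3.95%). A match describes letters in this window and not a bound factor, and the motif was chosen after the values were seen.

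Rsad2, which encodes the antiviral enzyme viperin, was at 15.8, 11.0 and 13.9 CPM at day 7 and 27.8, 39.7 and 40.6 CPM at day 3. All day 7 libraries were below all day 3 libraries, and the log2 fold change was -1.41 ± 0.22 (SE, edgeR adjusted p = 0.00985). Oas3, which makes the second messenger that activates RNase L, was at 8.61, 5.48 and 6.53 CPM at day 7 and 15.5, 31.8 and 28.9 CPM at day 3 and fell 3.69-fold (edgeR adjusted p = 0.0133). Mx1, an antiviral GTPase, fell 2.99-fold and Cxcl10, a T cell chemokine, fell 2.48-fold (edgeR adjusted p = 0.0198 and 0.023). Ifit3 and Ifit1, whose proteins bind viral RNA or its complexes, fell 2.39-fold and 1.82-fold (edgeR adjusted p = 0.0352 and 0.0498), and reads of the Ifit3 gene can be shared with its copy Ifit3b. The day 3 mean was not above the day 0 mean for any of these genes: Rsad2 averaged 53.9 ± 33.1 CPM at day 0, 104 ± 5.56 at day 1, 36.0 ± 7.15 at day 3, 23.3 ± 6.52 at day 5 and 13.6 ± 2.43 at day 7 (SD, n = 3 each). For the interferon list, members called lower numbered 9, 1 and 5 with day 7 replicates 1, 2 and 3 left out in turn, and 8, 1 and 4 with day 3 replicates 1, 2 and 3 left out. Rsad2 was called in all 6 fits, and Oas3, Mx1, Cxcl10 and Ifit3 each missed the threshold in at least 1 of the fits without day 7 replicates 2 or 3 or day 3 replicates 2 or 3, at edgeR adjusted p of 0.0505 to 0.134, and Ifit1 missed it in all 6. Ifit1 and Ifit3 were named after their values were seen.

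Lymphocyte and dendritic cell genes showed no calls. Of 19 tested genes of T and NK cells edgeR called 0. At an unadjusted p under 0.05, 2 were higher and 2 lower, and DESeq2 called 1 higher and 1 lower. Over all 16983 genes tested, 4699 had an unadjusted p under 0.05, and DESeq2 called 1290 higher and 1643 lower. The T cell receptor chain gene Trbc2 averaged 17.9 ± 2.32 CPM at day 7 and 13.1 ± 0.899 CPM at day 3, and the co-receptor gene Cd4, which mouse macrophages can also express, averaged 9.74 ± 3.00 CPM at day 7 and 22.1 ± 10.2 CPM at day 3 (SD, n = 3 each). Cd3e, a chain of the T cell receptor complex, averaged 3.93 ± 1.60 CPM at day 7 and 2.30 ± 0.371 CPM at day 3 (SD, n = 3 each; edgeR adjusted p = 0.189). Of 9 tested genes of B and plasma cells edgeR called 0, with 3 higher at an unadjusted p under 0.05 and 1 higher by DESeq2. Jchain, the joining chain of secreted antibodies, averaged 1.39 ± 0.951 CPM at day 7 and 0.357 ± 0.103 CPM at day 3 (SD, n = 3 each; edgeR adjusted p = 0.0906). Of 16 tested genes of antigen presentation and dendritic cells edgeR called 0, with 1 higher at an unadjusted p under 0.05 and 1 higher by DESeq2. Cd207, the langerin gene of Langerhans cells, averaged 12.2 ± 5.93 CPM at day 7 and 6.11 ± 2.84 CPM at day 3, and Epcam, an adhesion gene of Langerhans cells and of hair follicle epithelium, averaged 109 ± 22.9 CPM at day 7 and 58.2 ± 16.5 CPM at day 3 (SD, n = 3 each; edgeR adjusted p = 0.23 and 0.0531). Leaving out day 7 replicate 1 or day 3 replicate 3 brought a call of Epcam, as did leaving out day 5 replicate 2, which also brought a call of Cd4 (edgeR adjusted p = 0.0292 and 0.0458). Of 10 tested mast cell genes only Hdc, the enzyme that makes histamine, was called (10% against 4.56% of all genes); it fell 5.84-fold (edgeR adjusted p = 0.0142), and without day 7 replicate 2 its edgeR adjusted p was 0.0666. Without day 5 replicate 2, 3 mast cell genes were called lower, against 1045 of all 16983 genes tested. Neutrophils can also express Hdc.

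Heat shock genes and immediate early genes, which cells switch on within minutes of a stimulus, formed 1 list, and the 5 called lower were immediate early genes. Of 19 tested heat shock and immediate early genes, 5 fell and 1 rose (26.3% against 4.56% and 5.26% against 3.07%), and the median log2 fold change was -0.81. Fos, a subunit of the AP-1 transcription factor, was at 24.1, 18.9 and 12 CPM at day 7 and 60.6, 304 and 339 CPM at day 3, a log2 fold change of -3.68 ± 0.59 (SE, edgeR adjusted p = 0.0108). The groups did not overlap, and day 3 replicate 1 was the lowest of the day 3 libraries by a wide margin. Fosb, another AP-1 subunit, fell 16.8-fold (edgeR adjusted p = 0.0199). Dusp1, a phosphatase that shuts off stress kinases, was at 56.9, 47.6 and 34.3 CPM at day 7 and 121, 202 and 231 CPM at day 3 and fell 3.99-fold (edgeR adjusted p = 0.00886). Zfp36, which destabilises cytokine messenger RNA, fell 3.20-fold (edgeR adjusted p = 0.0165), and Junb, a further AP-1 subunit, fell 2.09-fold (edgeR adjusted p = 0.0447); Junb was named after its values were seen. Hsph1, a heat shock protein of the Hsp110 family, rose 2.18-fold (edgeR adjusted p = 0.0237). The log2 fold change was negative for 12 of the 19 and positive for 7. Among immediate early genes, Egr2, a zinc finger factor also known from Schwann cells, averaged 43.2 ± 3.27 CPM at day 7 and 30.8 ± 5.82 CPM at day 3 (SD, n = 3 each), with all day 7 libraries above all day 3 libraries; edgeR did not call it (edgeR adjusted p = 0.0865) and DESeq2 called it higher. Egr2 was named after its values were seen. Dusp1 was called in all 6 fits that left out 1 library, and Fos, Fosb, Zfp36, Junb and Hsph1 each missed the threshold in at least 1 of the 6 fits, at edgeR adjusted p of 0.0535 to 0.157. For the whole list, members called lower numbered 4, 1 and 6 with day 7 replicates 1, 2 and 3 left out in turn, and 6, 2 and 4 with day 3 replicates 1, 2 and 3 left out.

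In the epidermis the genes of the activated wound edge fell, and those of the resting and cornified layers gave few or no calls. Of 24 tested wound-edge keratinocyte genes, 13 fell and none rose (54.2% against 4.56%), and the median log2 fold change was -0.91. Lama3, a laminin chain of the epidermal basement membrane, was at 33.5, 25.5 and 36.8 CPM at day 7 and 80.1, 78.8 and 98.6 CPM at day 3. The log2 fold change was -1.43 ± 0.22 (SE), or 2.69-fold lower, and Itgb4, an integrin chain that anchors basal cells to that membrane, fell 1.93-fold (edgeR adjusted p = 0.00985 for both). Krt6a, a keratin of wounded epidermis, was at 514, 231 and 863 CPM at day 7 and 2279, 1967 and 2328 CPM at day 3, and fell 4.09-fold (edgeR adjusted p = 0.0228). The day 3 libraries were close together for Krt6a, while the day 7 libraries differed severalfold, with replicate 2 lowest and replicate 3 highest.

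Krt6b, a near-identical copy with which Krt6a can share reads, fell 5.02-fold, and their partner keratin Krt16 fell 3.97-fold (edgeR adjusted p = 0.0267 and 0.0172). With day 0 included in the fit the edgeR adjusted p was 0.106 for Krt6a, 0.133 for Krt6b and 0.145 for Krt16. That fit called 7 wound-edge genes lower, against 990 of all 16983 genes tested. The day 0 libraries were uneven: in replicates 1 to 3 Krt6a was at 698, 54.5 and 94.9 CPM and Krt16 at 366, 19.9 and 31.2 CPM. Slpi, a secreted protease inhibitor of injured epithelium, fell 5.06-fold (edgeR adjusted p = 0.0482) and its log2 fold change was -3.24 without day 7 replicate 3. Krt17, a keratin of both wounded epidermis and hair follicle, was at 424, 485 and 1267 CPM at day 7 and 675, 495 and 619 CPM at day 3; the groups overlapped and it was not called (edgeR adjusted p = 0.683). Of 18 tested genes of basal and suprabasal epidermis, 3 fell and none rose (16.7%), with a median log2 fold change of 0.01. Among them Krt14, the keratin of basal cells, was at 1687, 1836 and 2368 CPM at day 7 and 4891, 4243 and 5803 CPM at day 3 and fell 2.54-fold (edgeR adjusted p = 0.0323), and Dsg3, a basal desmosome cadherin, fell 2.00-fold (edgeR adjusted p = 0.0431). Notch3, a receptor of the Notch family, fell 1.39-fold (edgeR adjusted p = 0.0197). Krt10, the keratin of suprabasal cells, was at 2559, 2921 and 1137 CPM at day 7 and 983, 1037 and 2392 CPM at day 3, with overlapping groups (edgeR adjusted p = 0.42). Of 24 tested cornified envelope genes edgeR called 0, with 2 higher at an unadjusted p under 0.05 and 1 higher by DESeq2. The latter was Tchh, a gene also of the hair follicle, with its highest level in day 7 replicate 3. The median log2 fold change of the 24 genes was 0.48.

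Lama3 and Itgb4 were called in all 6 fits that left out 1 library. Krt6a, Krt6b, Krt16, Slpi, Krt14, Dsg3 and Notch3 each missed the threshold in at least 1 of the fits without day 7 replicates 1 or 2 or day 3 replicates 1, 2 or 3, at edgeR adjusted p of 0.0535 to 0.136. For the wound-edge list, members called lower numbered 12, 4 and 13 with day 7 replicates 1, 2 and 3 left out in turn, and 8, 3 and 10 with day 3 replicates 1, 2 and 3 left out; for basal and suprabasal genes they numbered 1, 0 and 3 with day 7 replicates 1, 2 and 3 left out in turn, and 0, 0 and 1 with day 3 replicates 1, 2 and 3 left out. Without day 3 replicate 3, 1 gene of each list was called higher. Lama3 and Itgb4 were named after their values were seen.

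Genes of glycolysis and of the response to low oxygen were lower at day 7. Of 27 tested, 11 fell and none rose (40.7% against 4.56%), and the median log2 fold change was -0.41. Slc16a3, the transporter that exports lactate, was at 23.8, 23.3 and 23.2 CPM at day 7 and 81.9, 66.9 and 69.1 CPM at day 3. The replicates of each group were close together, and the log2 fold change was -1.63 ± 0.16 (SE, edgeR adjusted p = 0.00572). Pkm, the pyruvate kinase of the last glycolytic step, was at 577, 625 and 575 CPM at day 7 and 941, 1099 and 1107 CPM at day 3 and fell 1.77-fold (edgeR adjusted p = 0.00985). The glucose transporter gene Slc2a1 fell 2.17-fold, the carbonic anhydrase gene Car9 fell 2.21-fold and the enolase gene Eno1 fell 1.86-fold (edgeR adjusted p = 0.0123, 0.016 and 0.0106); reads of Eno1 can be shared with its copy Eno1b. Among glycolysis genes, members called lower numbered 9, 3 and 7 with day 7 replicates 1, 2 and 3 left out in turn, and 7, 3 and 7 with day 3 replicates 1, 2 and 3 left out. Slc16a3 and Pkm were called in all 6 fits, and Slc2a1, Car9 and Eno1 each missed the threshold in at least 1 of the fits without day 7 replicate 2 or day 3 replicate 2, at edgeR adjusted p of 0.0515 to 0.0691.

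Genes of the mitochondrial genome rose, and nuclear genes of the respiratory chain gave no call. Of 13 mitochondrially encoded genes, 10 rose and none fell (76.9% against 3.07%), all 13 had every day 7 library above every day 3 library (against 16.5% of all genes), and the median log2 fold change was 0.69. Their summed share of the counts was 8.09%, 9.44% and 9.26% in day 7 libraries 1 to 3, against 5.34%, 6.04% and 6.30% in day 3 libraries 1 to 3. The exact two-sided permutation p was 0.1, the smallest possible with 3 against 3 libraries. Mitochondrial shares were 5.29%, 6.30% and 5.95% in day 0 libraries 1 to 3 and 7.37%, 6.98% and 7.525% in day 1 libraries 1 to 3. In day 5 libraries 1 to 3 they were 7.83%, 7.42% and 8.70%. Every day 1 and day 5 library thus also lay above every day 3 library. The complex I subunit gene mt-Nd4 was at 7311, 9346 and 8379 CPM at day 7 and 4449, 4339.7 and 5398 CPM at day 3 and rose 1.76-fold (edgeR adjusted p = 0.016). The ATP synthase subunit genes mt-Atp8 and mt-Atp6 rose 2.21-fold and 1.67-fold (edgeR adjusted p = 0.016 and 0.0238). Of 26 tested nuclear genes of the respiratory chain edgeR called 0, with 1 higher and 1 lower at an unadjusted p under 0.05 and 1 lower by DESeq2, and their median log2 fold change was -0.01. For the mitochondrial genes, members called higher numbered 12, 1 and 4 with day 7 replicates 1, 2 and 3 left out in turn, and 0, 0 and 9 with day 3 replicates 1, 2 and 3 left out; mt-Nd4, mt-Atp8 and mt-Atp6 each missed the threshold in at least 1 of the fits without day 7 replicates 2 or 3 or day 3 replicates 1 or 2, at edgeR adjusted p of 0.0608 to 0.0808. Reads of these genes can be shared with nuclear copies of mitochondrial sequence.

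**Figure D3:**
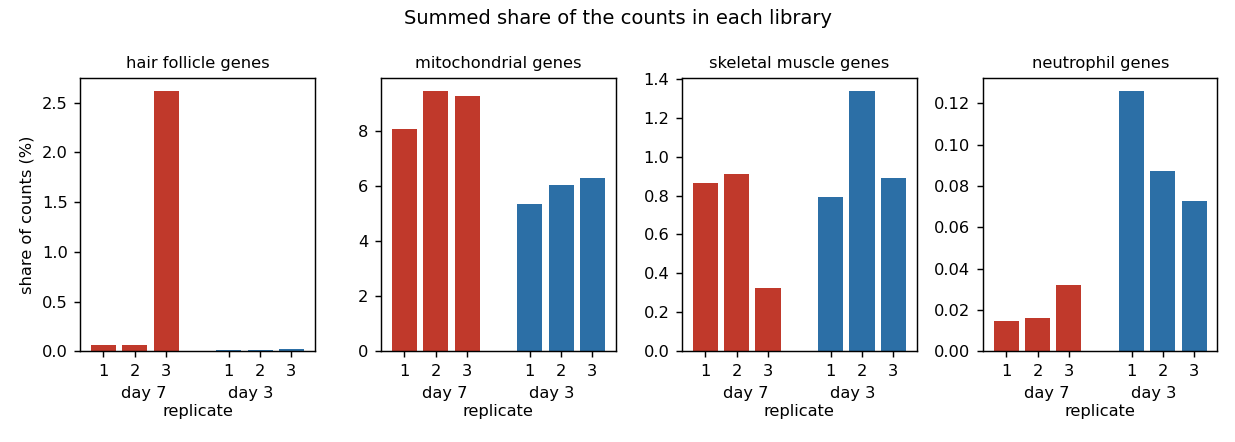
Bars give the summed share of the counts (%) of 4 gene lists in each library, day 7 in red on the left and day 3 in blue on the right, numbered by replicate. Mitochondrial genes took 8.09% to 9.44% at day 7 and 5.34% to 6.30% at day 3, and hair follicle genes reached 2.61% in day 7 replicate 3 only.

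Genes of blood vessels were lower at day 7. Of 23 tested blood endothelial and sprouting vessel genes, 6 fell and none rose (26.1% against 4.56%). The median log2 fold change was -0.76, and 18 of the 23 had every day 7 library below every day 3 library, against 15.1% of all genes. Pecam1, a junction protein of endothelium, was at 117, 92.8 and 94.3 CPM at day 7 and 211, 228 and 179 CPM at day 3, a log2 fold change of -1.02 ± 0.22 (SE, edgeR adjusted p = 0.0259). Cdh5, the endothelial cadherin, fell 2.22-fold, and Eng, an endothelial co-receptor for the transforming growth factor beta family, fell 2.08-fold (edgeR adjusted p = 0.038 and 0.0126). Plvap, a protein of fenestrae, fell 2.05-fold and Nos3, the endothelial nitric oxide synthase, fell 2.23-fold (edgeR adjusted p = 0.0165 and 0.0398). Of 7 tested lymphatic genes edgeR called 0, with 3 lower at an unadjusted p under 0.05 and 1 lower by DESeq2; Flt4, the receptor of lymphatic growth, averaged 16.5 ± 2.63 CPM at day 7 and 26.5 ± 4.65 CPM at day 3 (SD, n = 3 each; edgeR adjusted p = 0.062). For the blood vessel list, members called lower numbered 6, 0 and 2 with day 7 replicates 1, 2 and 3 left out in turn, and 1, 0 and 6 with day 3 replicates 1, 2 and 3 left out. Pecam1, Cdh5, Eng, Plvap and Nos3 each missed the threshold without day 7 replicate 2 and without day 3 replicate 2. Plvap also missed it without day 3 replicate 1, and Pecam1, Cdh5 and Nos3 without day 3 replicate 1 or day 7 replicate 3; the edgeR adjusted p reached 0.152. Angpt1, a vessel-stabilising ligand, was called higher without day 7 replicate 3, with a log2 fold change of 0.58 (edgeR adjusted p = 0.0496). With that library the log2 fold change of Angpt1 was 0.39. Without day 5 replicate 2, 11 members of the vessel list were called lower, against 1045 of all 16983 genes tested. Angpt1 was named after its values were seen.

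Among 25 tested growth factors of repair, 7 fell and none rose (28% against 4.56%), with a median log2 fold change of -0.35. Csf3, the gene of the growth factor that mobilises neutrophils, was at 0.0210, 0.0537 and 0.119 CPM at day 7 and 1.92, 1.27 and 2.23 CPM at day 3 and fell 26.5-fold (edgeR adjusted p = 0.0223); without day 7 replicate 3 its log2 fold change was -5.57. The groups did not overlap. Vegfd, a vessel growth factor, fell 2.17-fold, Csf1, the growth factor of macrophages, fell 2.16-fold and Hgf, the hepatocyte growth factor gene, fell 1.93-fold (edgeR adjusted p = 0.0219, 0.0193 and 0.0333). Fgf7, the fibroblast factor that drives keratinocyte growth, was at 21.0, 18.0 and 20.7 CPM at day 7 and 36.7, 34.1 and 31.2 CPM at day 3 and fell 1.71-fold (edgeR adjusted p = 0.00934); it was named after its values were seen. Among growth factors, members called lower numbered 6, 2 and 4 with day 7 replicates 1, 2 and 3 left out in turn, and 2, 2 and 7 with day 3 replicates 1, 2 and 3 left out. Fgf7 was called in all 6 fits, and Csf3, Vegfd, Csf1 and Hgf each missed the threshold in at least 1 of the fits without day 7 replicates 1, 2 or 3 or day 3 replicates 1 or 2, at edgeR adjusted p of 0.0528 to 0.124.

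Few collagen genes were called. Of 22 tested collagen chains in the list, 3 fell and none rose (13.6% against 4.56%), with 13 positive and 9 negative log2 fold changes and a median of 0.06. Outside the list, the membrane collagen gene Col25a1 was called higher, with a log2 fold change of 2.77 (edgeR adjusted p = 0.0073). The 3 that fell, Col4a2, Col4a1 and Col18a1, are known from basement membranes and were 1.81-fold, 1.70-fold and 1.44-fold lower (edgeR adjusted p = 0.0198, 0.0302 and 0.049). Col1a1, a chain of the main fibrillar collagen of dermis, was at 13943, 12503 and 6273 CPM at day 7 and 10036, 7077 and 16407 CPM at day 3. Col3a1, the fibrillar collagen of early scar, was at 22689, 20977 and 11475 CPM at day 7 and 19488, 12634 and 23727 CPM at day 3. For both fibrillar chains the groups overlapped, the spread within each group was wide, and neither was called (edgeR adjusted p = 0.967 and 0.979). The less abundant fibrillar chains Col11a1 and Col27a1 had log2 fold changes of 1.68 and 0.72, which DESeq2 called higher and edgeR did not (edgeR adjusted p = 0.0776 and 0.0673); without day 5 replicate 2 edgeR called Col27a1. Both were named after their values were seen. Among 23 tested collagen processing enzymes, 2 fell and none rose (8.7%): Loxl3, a cross-linking oxidase, fell 2.41-fold and Plod3, a lysyl hydroxylase, fell 1.65-fold (edgeR adjusted p = 0.033 and 0.0126). For collagen chains, members called lower numbered 2, 0 and 1 with day 7 replicates 1, 2 and 3 left out in turn, and 0, 0 and 2 with day 3 replicates 1, 2 and 3 left out, and for processing enzymes 1, 0 and 1 with day 7 replicates 1, 2 and 3 left out in turn, and 1, 0 and 1 with day 3 replicates 1, 2 and 3 left out. The edgeR adjusted p of Col4a2, Col4a1, Col18a1, Loxl3 and Plod3 reached 0.176 in these fits. Col18a1 and Loxl3 were called in none of the 6, and Col4a2, Col4a1 and Plod3 lost the call without day 7 replicate 2 and without day 3 replicate 2.

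Among 28 tested matricellular and matrix glycoprotein genes, 2 rose and 3 fell (7.14% against 3.07% and 10.7% against 4.56%). Postn, which encodes periostin, a matrix protein of healing dermis that aids collagen assembly, was at 3607, 3682 and 3392 CPM at day 7 and 1417, 1063 and 1366 CPM at day 3. The day 7 libraries were close together and far above the day 3 libraries, and Postn rose 2.78-fold (log2 fold change 1.47 ± 0.35, SE, edgeR adjusted p = 0.0341). Aspn, a small leucine-rich proteoglycan gene, was at 911, 1024 and 756 CPM at day 7 and 477, 257 and 471 CPM at day 3 and rose 2.23-fold (edgeR adjusted p = 0.0395). Omd, a related proteoglycan gene outside the list, rose 2.27-fold (edgeR adjusted p = 0.0443). Tnc, which encodes tenascin C of early granulation tissue, was at 255, 193 and 328 CPM at day 7 and 712, 624 and 413 CPM at day 3 and fell 2.26-fold (edgeR adjusted p = 0.035). Thbs1, the thrombospondin gene, and Cyr61, a matricellular integrin ligand, fell 2.87-fold and 2.69-fold (edgeR adjusted p = 0.0155 and 0.0302). With day 0 included in the fit none of the 3 was called (edgeR adjusted p = 0.149 for Tnc, 0.063 for Thbs1 and 0.0794 for Cyr61). For the glycoprotein list, members called higher numbered 0, 0 and 0 with day 7 replicates 1, 2 and 3 left out in turn, and 0, 0 and 0 with day 3 replicates 1, 2 and 3 left out, and members called lower numbered 1, 0 and 2 with day 7 replicates 1, 2 and 3 left out in turn, and 1, 0 and 2 with day 3 replicates 1, 2 and 3 left out. Postn and Aspn lost the call in all 6 fits and Omd in 5 of them, with edgeR adjusted p up to 0.134. In the fit on the 6 libraries alone 2 members of the list were called higher. Postn was called there (edgeR adjusted p = 0.0401) and Aspn was not (edgeR adjusted p = 0.0879).

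Contractile and fibroblast genes gave few calls. Of 18 tested myofibroblast and smooth muscle genes only Flna, an actin cross-linker, was called (5.56% against 4.56% of all genes), and it fell 1.53-fold (edgeR adjusted p = 0.0307). Acta2, the smooth muscle actin of myofibroblasts, was at 136, 121 and 189 CPM at day 7 and 206, 246 and 226 CPM at day 3 and was not called (edgeR adjusted p = 0.116), although all day 7 libraries were below all day 3 libraries; without day 5 replicate 2 it was called (edgeR adjusted p = 0.0364). Of 20 tested genes of resting fibroblasts only Pdgfra, a receptor for platelet-derived growth factor, was called (5%), and it fell 1.73-fold (edgeR adjusted p = 0.0433). Pdgfra was not called without day 7 replicate 3, and Dpt, the dermatopontin gene of dermal matrix, was then called higher, with a log2 fold change of 0.74 (edgeR adjusted p = 0.021; 0.48 with that library); Dpt was named after its values were seen. Of 13 tested hyaluronan genes only the synthase gene Has2 was called (7.69%), and it fell 2.15-fold (edgeR adjusted p = 0.0158). Flna, Pdgfra and Has2 each missed the threshold in at least 1 of the fits without day 7 replicates 2 or 3 or day 3 replicates 1, 2 or 3, at edgeR adjusted p up to 0.143.

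Matrix proteases and their inhibitors changed in both directions. Of 27 tested, 2 rose and 6 fell (7.41% against 3.07% and 22.2% against 4.56%). Mmp12, the macrophage elastase, was at 222, 286 and 105 CPM at day 7 and 19.5, 35.8 and 56.7 CPM at day 3. All day 7 libraries were above all day 3 libraries, and the log2 fold change was 2.45 ± 0.41 (SE, edgeR adjusted p = 0.0123), or 5.46-fold. Timp3, a matrix-bound inhibitor of metalloproteinases, was at 239, 239 and 231 CPM at day 7 and 147, 149 and 199 CPM at day 3 and rose 1.43-fold (edgeR adjusted p = 0.0429); it was named after its values were seen. Mmp1a, an interstitial collagenase of mouse, was nearly absent at day 7, with 0.0210, 0.0268 and 0.0198 CPM, against 1.13, 1.19 and 0.301 CPM at day 3 (edgeR adjusted p = 0.0073). Mmp9, the gelatinase of leukocytes and keratinocytes, fell 3.11-fold (edgeR adjusted p = 0.0131). Mmp1a was called in all 6 fits that left out 1 library, and Mmp12, Timp3 and Mmp9 each missed the threshold in at least 1 of the fits without day 7 replicates 1, 2 or 3 or day 3 replicates 1 or 2, at edgeR adjusted p of 0.0503 to 0.159. For the protease list, members called lower numbered 5, 1 and 6 with day 7 replicates 1, 2 and 3 left out in turn, and 3, 1 and 4 with day 3 replicates 1, 2 and 3 left out, and members called higher 1, 0 and 1 with day 7 replicates 1, 2 and 3 left out in turn, and 1, 0 and 2 with day 3 replicates 1, 2 and 3 left out.

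Prg4 and Car4, which are in no list, were also among the largest losses. Prg4, which encodes the lubricating proteoglycan lubricin, was at 9.11, 5.99 and 24.5 CPM at day 7 and 235, 135 and 102 CPM at day 3. The groups did not overlap, and day 7 replicate 3 was again the highest of its group. Prg4 fell 11.9-fold (log2 fold change -3.57 ± 0.57, SE, edgeR adjusted p = 0.0106) and was called in all 6 fits that left out 1 library. Car4, a membrane-bound carbonic anhydrase, was at 0.631, 0.859 and 1.90 CPM at day 7 and 15.8, 7.17 and 4.46 CPM at day 3 and fell 8.05-fold (edgeR adjusted p = 0.0123). Without day 7 replicate 2 the edgeR adjusted p of Car4 was 0.0581. The log2 fold changes of Prg4 and Car4 were -4.38 and -3.62 without day 7 replicate 3, and that of Car4 was -2.35 without day 3 replicate 1.

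The largest rise among called genes that met the naming rule was that of Prss35, which encodes a secreted protein of the serine protease family. Prss35 was at 161, 157 and 78.9 CPM at day 7 and 8.11, 4.30 and 6.30 CPM at day 3. Its levels in the 3 day 3 libraries were close to those of day 0 and day 1, which averaged 7.29 ± 4.84 and 4.40 ± 4.22 CPM (SD, n = 3 each), and every day 7 library was far above them. The log2 fold change was 4.41 ± 0.70 (SE, edgeR adjusted p = 0.0114), or 21.2-fold. Edil3, a secreted integrin ligand, was at 11.4, 11.9 and 11.6 CPM at day 7 and 2.25, 2.28 and 2.95 CPM at day 3 and rose 4.65-fold (edgeR adjusted p = 0.0068). The replicates of Edil3 were closely alike in both groups.

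Both members of the heparin-binding growth factor family of midkine and pleiotrophin rose. The midkine gene Mdk was at 26.6, 21.5 and 17.1 CPM at day 7 and 8.06, 3.33 and 3.19 CPM at day 3 and rose 4.46-fold (edgeR adjusted p = 0.0237). The pleiotrophin gene Ptn was at 84.5, 105 and 80.9 CPM at day 7 and 41.2, 23.5 and 44.4 CPM at day 3 and rose 2.48-fold (edgeR adjusted p = 0.0193). Both were named by the rule for the largest changes, which required no overlap between the groups. Itm2a, a transmembrane protein of developing cartilage and muscle, rose 3.02-fold (edgeR adjusted p = 0.00833), and Nrep, a small protein linked to regeneration of nerve and to myofibroblasts, rose 2.28-fold (edgeR adjusted p = 0.00985). Atp6v0d2, a proton pump subunit of osteoclasts and macrophages, rose 3.00-fold (edgeR adjusted p = 0.0229), and Rflna, a filamin-binding protein, rose 3.74-fold (edgeR adjusted p = 0.0378). Banp, a nuclear protein that binds DNA, rose 2.24-fold, and Ceacam3, of the carcinoembryonic antigen family, rose 2.26-fold (edgeR adjusted p = 0.0082 and 0.0347).

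Edil3, Itm2a and Banp were called in all 6 fits that left out 1 library. Col25a1, a membrane collagen that was at 1.66, 1.66 and 0.851 CPM at day 7 and 0.184, 0.162 and 0.261 CPM at day 3, was too, as was Krt7, a keratin of simple and glandular epithelia that was at 3.07, 3.73 and 3.74 CPM at day 7 and 0.801, 0.626 and 0.903 CPM at day 3; both were named after their values were seen (edgeR adjusted p = 0.0073 for both). Prss35, Mdk, Ptn, Nrep, Atp6v0d2, Rflna and Ceacam3 each missed the threshold in at least 1 of the 6 fits, at edgeR adjusted p of 0.054 to 0.135. Prss35 and Nrep lost the call without day 3 replicate 2 alone.

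Imprinted genes, which are expressed from one parental copy and are linked to growth, gave 2 rises and no fall among 10 tested (20% against 3.07%), with a median log2 fold change of 0.25. Peg3, a zinc finger gene expressed from the paternal copy, was at 64.4, 71.7 and 59.4 CPM at day 7 and 37.6, 40.1 and 35.8 CPM at day 3 and rose 1.72-fold (edgeR adjusted p = 0.0287). Its neighbour Zim1, outside the list, rose 2.47-fold, and Plagl1, a zinc finger factor, rose 1.87-fold (edgeR adjusted p = 0.0453 and 0.0443). For the imprinted list, members called higher numbered 1, 0 and 1 with day 7 replicates 1, 2 and 3 left out in turn, and 0, 0 and 0 with day 3 replicates 1, 2 and 3 left out, and the edgeR adjusted p of Peg3, Zim1 and Plagl1 reached 0.161. Zim1 and Plagl1 were called in none of these 6 fits and Peg3 in 2.

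Circadian clock genes changed in both directions. Of 16 tested, 3 rose and 2 fell (18.8% against 3.07% and 12.5% against 4.56%). Arntl, the clock activator BMAL1, was at 34.7, 29.6 and 32.7 CPM at day 7 and 17.2, 18.6 and 18.7 CPM at day 3, with replicates close together, and rose 1.78-fold (edgeR adjusted p = 0.00985). Npas2, a partner of BMAL1, rose 2.26-fold, and the repressor gene Cry1 rose 1.65-fold (edgeR adjusted p = 0.0222 and 0.0346). Dbp, an output gene of the clock, was at 13.7, 19.4 and 4.16 CPM at day 7 and 35.5, 45.5 and 50.6 CPM at day 3 and fell 3.54-fold (edgeR adjusted p = 0.0346). Bhlhe40, a repressor that also answers to hypoxia, fell 1.59-fold (edgeR adjusted p = 0.0237). Arntl averaged 35.8 ± 4.10 CPM at day 0, 19.3 ± 0.919 at day 1, 18.2 ± 0.856 at day 3, 17.1 ± 2.98 at day 5 and 32.3 ± 2.62 at day 7 (SD, n = 3 each), so day 7 was near day 0 and the 3 days between were lower. The labels do not state the hour of sampling. Arntl was called in all 6 fits, and Npas2, Cry1, Dbp and Bhlhe40 each missed the threshold in at least 1 of the 6 fits, at edgeR adjusted p of 0.0535 to 0.121. For the clock list, members called higher numbered 3, 1 and 2 with day 7 replicates 1, 2 and 3 left out in turn, and 1, 1 and 2 with day 3 replicates 1, 2 and 3 left out, and members called lower 1, 0 and 1 with day 7 replicates 1, 2 and 3 left out in turn, and 1, 0 and 0 with day 3 replicates 1, 2 and 3 left out.

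Hair follicle genes had the highest median fold change of all lists and no call. Of 33 tested, edgeR called 0; at an unadjusted p under 0.05, 31 were higher and none lower, and DESeq2 called 9 higher. Their median log2 fold change was 6.73, and in 28 of the 33 every day 7 library was above every day 3 library, against 16.5% of all genes. The median without day 7 replicate 3 was 2.05, still the highest of all lists. Summed hair shares also varied widely within the other days. They were 0.0155%, 0.0389% and 0.235% of the counts in day 0 libraries 1 to 3. In day 1 libraries 1 to 3 they were 0.01185%, 0.0815% and 0.1455%. In day 5 libraries 1 to 3 they were 0.111%, 2.15% and 0.0144%. The shares of day 7 replicates 1 and 2, 0.0662% and 0.0589%, lay within this range. Krt25, a keratin of the inner root sheath of growing hairs, was at 83.7, 69.6 and 3075 CPM at day 7 and 1.92, 7.86 and 20.6 CPM at day 3 (edgeR adjusted p = 0.161). Day 7 replicate 3 was far above the other day 7 libraries, and those in turn lay above the day 3 libraries. Tchh, the trichohyalin gene of the same sheath, was at 175, 148 and 6174 CPM at day 7 and 11.9, 21.6 and 61.3 CPM at day 3 (edgeR adjusted p = 0.153). Shh, the signal of the growing hair bulb, was at 3.89, 4.13 and 11.9 CPM at day 7 and 0.584, 1.03 and 1.67 CPM at day 3 (edgeR adjusted p = 0.0966). Of 8 tested melanocyte genes edgeR called 0, with 7 higher at an unadjusted p under 0.05 and 1 higher by DESeq2. Oca2, a melanosome transporter, was at 0.210, 0.215 and 14.4 CPM at day 7 and 0.0501, 0.0202 and 0 CPM at day 3 (edgeR adjusted p = 0.0915), so its day 7 level came from replicate 3. Without day 7 replicate 3 the log2 fold changes were 2.92 for Krt25, 2.36 for Tchh, 1.88 for Shh and 2.98 for Oca2, against 6.73, 6.10, 2.61 and 7.51 with it, and edgeR again called 0 genes of either list. Without day 5 replicate 2, edgeR called 2 hair genes and 1 melanocyte gene higher, Shh and Oca2 among them (edgeR adjusted p = 0.0345 and 0.0431). That fit called 748 of all 16983 genes tested higher.

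Cell cycle genes were not called with all 12 libraries in the fit. Of 30 tested DNA replication genes edgeR called 0, with 3 lower at an unadjusted p under 0.05 and 2 lower by DESeq2. Without day 7 replicate 3 edgeR called 2 lower, against 414 of all 16983 genes tested. Of 34 tested mitosis genes edgeR called 0, with 3 lower at an unadjusted p under 0.05 and 1 lower by DESeq2. The median log2 fold changes were -0.33 for replication genes and -0.43 for mitosis genes, and -0.65 and -0.95 without day 7 replicate 3. Mki67, a marker of dividing cells, was at 75.9, 65.5 and 162 CPM at day 7 and 119.8, 134 and 129 CPM at day 3 (edgeR adjusted p = 0.586). Day 7 replicates 1 and 2 were below every day 3 library and day 7 replicate 3, the library rich in hair genes, was above them. The mitotic kinase gene Plk1 was at 7.43, 6.98 and 17.1 CPM at day 7 and 20.4, 27.9 and 18.3 CPM at day 3 (edgeR adjusted p = 0.139). The replication helicase gene Mcm3 was at 25.4, 22.7 and 35.2 CPM at day 7 and 37.8, 53.7 and 39.2 CPM at day 3 (edgeR adjusted p = 0.0566). Mcm3 was called lower without day 7 replicate 3 (edgeR adjusted p = 0.0294). With the hair-rich libraries, day 7 replicate 3 and day 5 replicate 2, both left out, 9 of the 30 replication genes and 3 of the 34 mitosis genes were called lower, Plk1 included (edgeR adjusted p = 0.0434). That fit called 1053 of all 16983 genes tested lower.

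The remaining lists held few or no calls. Of 26 tested Wnt pathway genes edgeR called 0, with 8 higher and 2 lower at an unadjusted p under 0.05 and 3 higher by DESeq2. The ligand gene Wnt6 averaged 5.66 ± 0.594 CPM at day 7 and 3.26 ± 0.463 CPM at day 3, and the Wnt enhancer gene Rspo3 averaged 5.33 ± 0.353 CPM at day 7 and 2.95 ± 0.614 CPM at day 3 (SD, n = 3 each; edgeR adjusted p = 0.075 and 0.0737). Without day 5 replicate 2, 4 members of the Wnt list were called higher, Wnt6 and Rspo3 among them (edgeR adjusted p = 0.0242 and 0.032). That fit called 748 of all 16983 genes tested higher. Of 16 tested Schwann cell and nerve genes edgeR called 0, with 3 higher at an unadjusted p under 0.05 and 1 higher by DESeq2. The myelin gene Mbp was at 138, 57.8 and 50.1 CPM at day 7 and 71.6, 68.4 and 75.8 CPM at day 3 (edgeR adjusted p = 0.767). Of 15 tested adipocyte genes edgeR called 0, with 1 lower at an unadjusted p under 0.05 and 1 lower by DESeq2; the adipokine gene Adipoq averaged 87.5 ± 35.6 CPM at day 7 and 126 ± 41.6 CPM at day 3 (SD, n = 3 each). Of 16 tested skeletal muscle genes edgeR called 0, with 1 higher and 2 lower at an unadjusted p under 0.05 and 1 lower by DESeq2. The muscle actin gene Acta1 was at 1671, 1599 and 762 CPM at day 7 and 2186, 3265 and 1832 CPM at day 3, and muscle genes took 0.866%, 0.909% and 0.324% of the counts in day 7 libraries, against 0.791%, 1.33% and 0.888% in day 3 libraries. Of 24 tested sebaceous and lipid synthesis genes 1 fell (4.17% against 4.56% of all genes), and that call was lost in each of the 6 fits that left out 1 library. Of 20 tested genes of protein folding in the endoplasmic reticulum 1 rose (5% against 3.07%): Manf, a secreted folding factor, rose 1.62-fold (edgeR adjusted p = 0.031, reaching 0.12 when 1 library was left out).

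**Figure D4:**
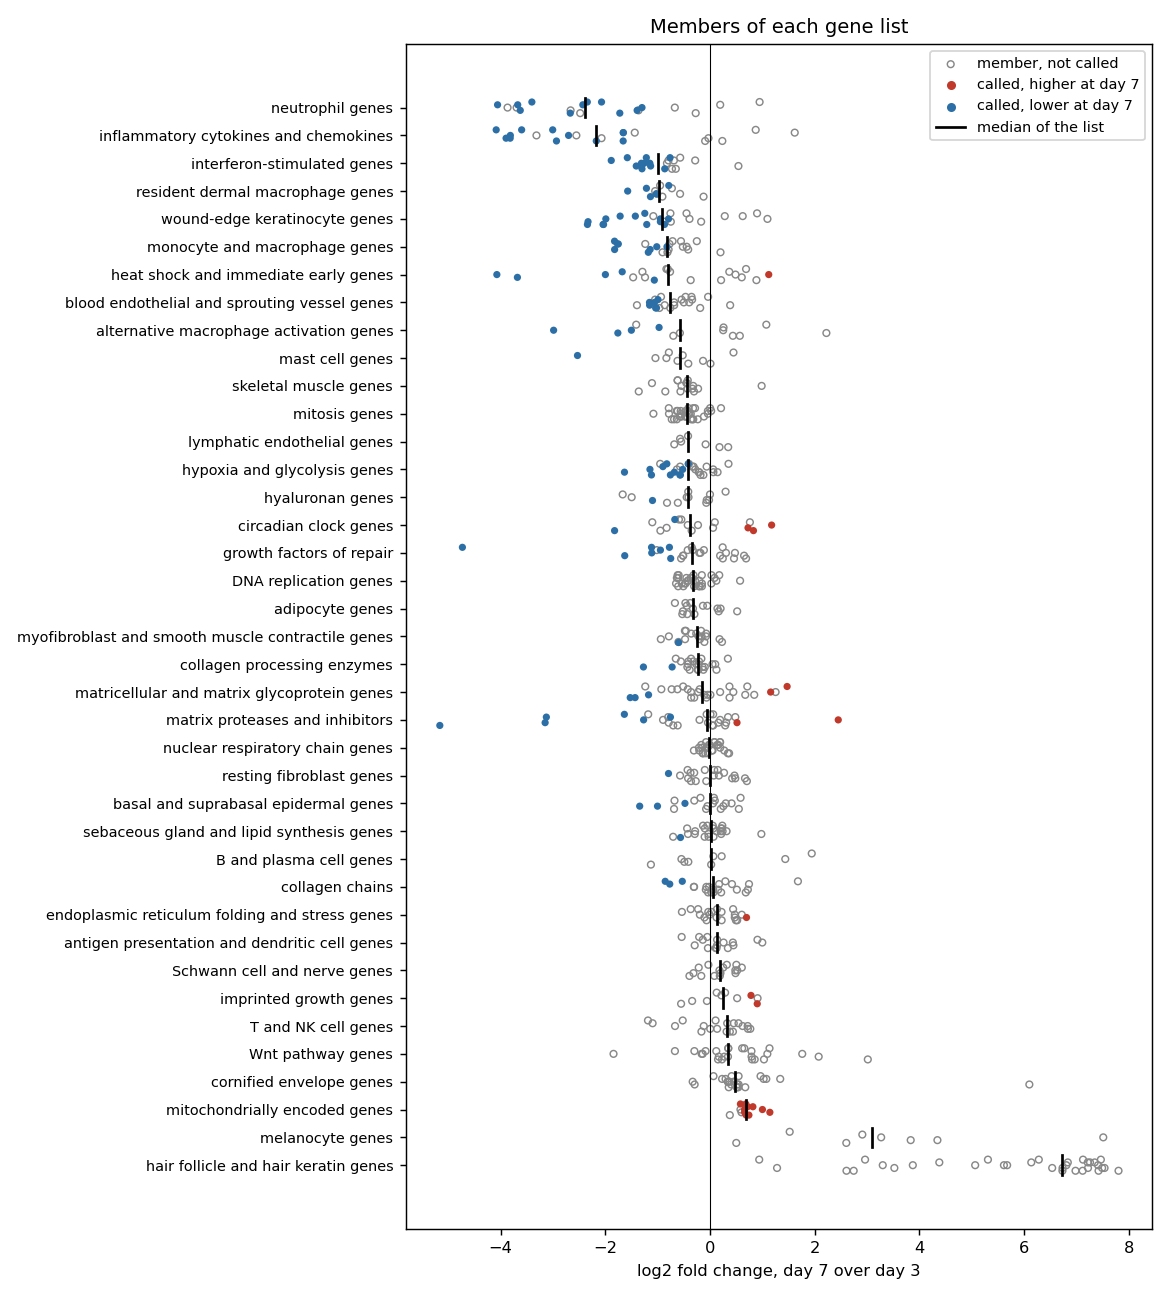
Each row is a gene list and each point a tested member, placed by its log2 fold change of day 7 over day 3, with a black bar at the list's median. Filled points are called genes, red higher and blue lower; blue points gather in the inflammatory, interferon, wound-edge, vessel and glycolysis lists, red ones in the mitochondrial list, and the hair and melanocyte points far to the right are open, that is not called.

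The levels at the other sampled days place these differences in the course of repair. Il1b averaged 37.2 ± 41.3 CPM at day 0, 304 ± 121 at day 1, 138 ± 25.1 at day 3, 27.7 ± 28.4 at day 5 and 9.75 ± 7.15 at day 7 (SD, n = 3 each), so the day 3 level was already below that of day 1. Krt6a averaged 282 ± 360.4, 1403 ± 587, 2191 ± 196, 1181 ± 150.5 and 536 ± 316 CPM in the same order of days and was highest at day 3. In day 0 replicate 1 Il1b was at 84.9 CPM and Krt6a at 698 CPM, far above the other day 0 libraries. Pecam1 averaged 106 ± 4.63, 143 ± 20.8, 206 ± 25.2, 151 ± 46.8 and 101 ± 13.7 CPM in that order, again highest at day 3, and its day 7 libraries overlapped those of day 0. Postn averaged 991 ± 143, 808 ± 351, 1282 ± 192, 2261 ± 1036 and 3561 ± 151 CPM, and Mdk averaged 3.27 ± 1.55, 2.94 ± 1.23, 4.86 ± 2.77, 12.2 ± 5.53 and 21.7 ± 4.77 CPM, both highest at day 7. Prss35 at day 5 averaged 39.6 ± 20.6 CPM, between the levels of day 3 and day 7. No test was made across these days.

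**Figure D5:**
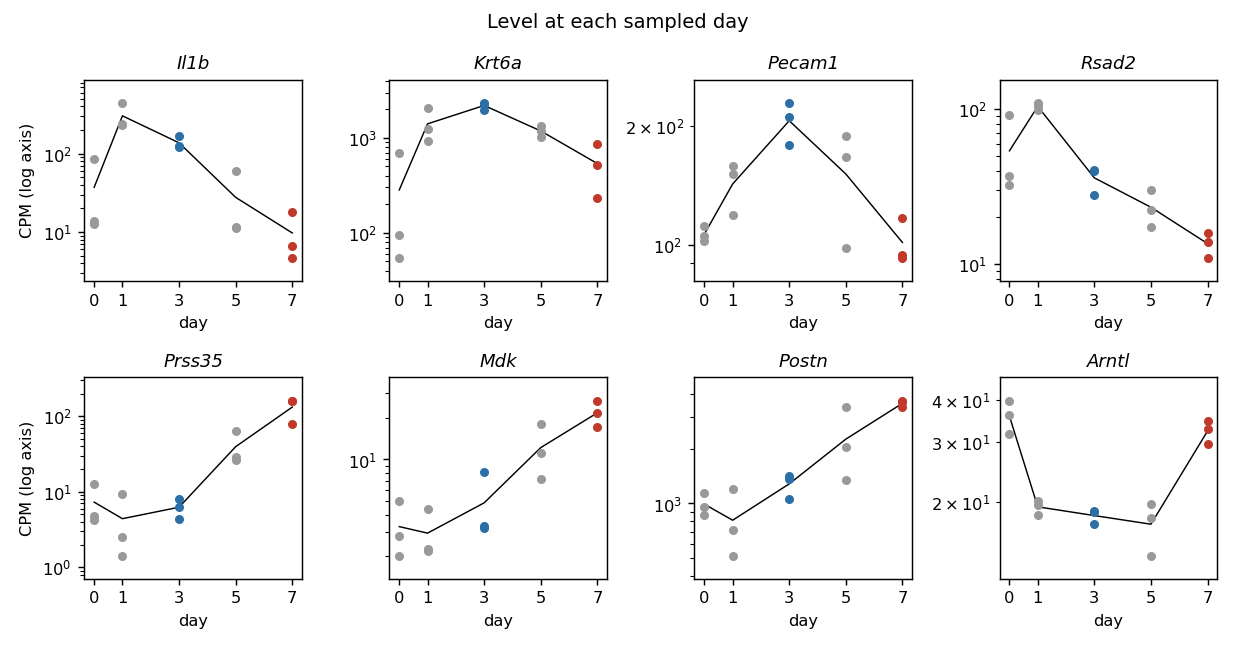
CPM (log axis) of 8 genes at day 0, 1, 3, 5 and 7, with 1 point per library, day 7 in red, day 3 in blue and the other days in grey, and a line through the means. Il1b is highest at day 1, Krt6a and Pecam1 are highest at day 3, and Prss35, Mdk and Postn are highest at day 7.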

How the data were processed

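Messenger RNA of mouse skin was sequenced in 15 libraries, 3 each at day 0, 1, 3, 5 and 7, and wounded skin of day 7 was compared with that of day 3. The authors deposited estimated counts by gene symbol, 1 table a library; the tool was kallisto 0.43, per the submitters' processing notes. Index, build, annotation and strand setting: not given in the sources used here. Close copies and overlapping genes are therefore uncertain. Each table held 30307 rows. The 26 rows that carry dates for names (0.155% to 0.179% of the counts) were left out.

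The deposited estimated counts were whole numbers and entered edgeR 4.0.16 in R 4.3.3 unchanged. Genes were kept by its expression filter (minimum count 10), libraries were scaled by TMM, and a robust quasi-likelihood model was fitted over the 12 libraries of day 1, 3, 5 and 7, which share 1 estimate of the spread. Day 0 was left out of the fit because earlier results of these data showed its libraries to be uneven. Two-sided p-values were Benjamini-Hochberg adjusted over the whole table of tested genes, with calls made under 0.05. Standard errors were derived from the F statistics. The common biological coefficient of variation was 31.1%, so at depths of 38062562 to 60450396 counts per library counting error is small beside it for all but low genes. The fit was also tested on simulated counts.

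Members and gene lists were chosen with earlier results of these data known. Named genes were the top 15 called in each direction by fold change (at least 2-fold, at least 5 CPM, no overlap between groups), up to 5 called members of each list or up to 2 with the smallest p where none was called, and 25 genes followed whatever their values. Others are marked in the text. A few genes that met this rule are not reported here. Promoters came from the RefSeq table of GRCm38.p6. The search for cell cycle motifs in promoters was not made, as those genes were not called. Alternatives were the 6 or all 15 libraries, DESeq2 1.42.0 and its size factors, no filter, a replicate block and leaving out libraries.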

Additional observations from a re-analysis of the deposited data

How the results depend on the processing

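With 3 libraries in each group, the number of calls was not stable. All 1296 calls kept their sign under every alternative run, but they had been called from the same libraries, so this is no separate test of direction. The count of 1296 calls (522 higher, 774 lower; 77 and 341 at least 2-fold) was 179 (26 and 153; 21 and 129) in the fit on the 6 libraries alone and 2933 (1290 and 1643; 250 at least 2-fold higher) by DESeq2. Without the expression filter, 333 genes were called higher. With the replicate number as a block, 640 were called (234 and 406, with 36 and 227 at least 2-fold). The labels do not say whether the numbers pair the libraries. Deviations of same-numbered libraries correlated at 0.0665, -0.0908 and 0.0694, and day 7 replicate 2 correlated best with day 3 replicate 1 (0.158). Correlations of deviations from means of 3 libraries cannot decide whether the libraries were paired. Leaving out 1 library at a time gave 114 to 1414 calls, 18 to 624 higher and 96 to 790 lower, and 7 to 83 at least 2-fold higher and 76 to 393 at least 2-fold lower. Without day 5 replicate 2, which only feeds the shared spread, 1793 were called (748 and 1045), 137 of them at least 2-fold higher; this last count was 116 without it and day 7 replicate 3, an alternative chosen after seeing the data. Of the 114 called genes with values in the text, 100 were called without the expression filter, 81 with the replicate block, 109 without both hair-rich libraries and all 114 by DESeq2 and with its size factors. The cause of these differences was not tested, beyond the smaller number of libraries in some fits. Fold changes that turned sign were those of uncalled genes. Over the fits without 1 library, log2 fold changes ran from -0.39 to 0.56 for Krt17, -0.28 to 0.35 for Col1a1, -0.23 to 0.23 for Col3a1, -0.36 to 0.20 for Timd4 and -0.41 to 0.44 for Mbp. Without day 7 replicate 3 those of Krt17, Col1a1, Col3a1 and Timd4 were -0.39, 0.24, 0.23 and 0.20, and -0.39, 0.24, 0.23 and 0.21 with day 5 replicate 2 left out as well. Col1a1 was at 0.35 without day 3 replicate 3, Col3a1 at 0.016 without day 3 replicate 1 and 0.19 without day 3 replicate 3, Timd4 at 0.050 without day 3 replicate 2 and Mbp at -0.41 without day 7 replicate 1. Genes near 1 CPM or below, such as Mmp1a and Csf3, rest on a few counts per library at day 7.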
